A study of Homo sapiens with 15 samples.

Results

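The genes described here are 9 genes of breast luminal identity and hormone response, namely ESR1, PGR, GATA3, FOXA1, SPDEF, MLPH, AGR2, TFF1 and ELF3, in RNA sequencing of MDA-MB231. They were chosen by symbol as genes of the luminal programme. All 9 were found among the 60651 genes of the count table and among the 23792 genes of a second table, in fragments per 1000000 fragments (FPM). MDA-MB231 is an established human line of triple-negative breast cancer, a class defined by low oestrogen receptor, progesterone receptor and HER2. The study asked how gene expression differs when KIF20A, a kinesin of cytokinesis, is depleted or overexpressed. A depletion dataset compared 3 CTRL libraries, whose genotype is labelled WT, with 3 SG1 and 3 SG3 libraries, both labelled KIF20A knockdown. An overexpression dataset compared 3 EV libraries, also labelled WT, with 3 libraries labelled KIF20A overexpression and called KIF20A_OE here. All 15 libraries carry the same cell line label and were grown in the same medium, DMEM with fetal bovine serum and antibiotics. The labels do not say what SG1 and SG3 stand for, whether the cells are clones or pools, or whether replicates came from separate cultures. All p-values therefore measure the spread between these libraries, which may be technical.

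In luminal breast epithelium, oestrogen receptor alpha, encoded by ESR1, works with the pioneer factors FOXA1 and GATA3, which open chromatin at its binding sites. Progesterone receptor (PGR) and the secreted trefoil peptide TFF1 are its classic target genes. SPDEF and ELF3 are ETS factors of epithelial cells, AGR2 is a protein disulphide isomerase of the endoplasmic reticulum in secretory cells, and MLPH encodes melanophilin, which links RAB27A to myosin Va. In breast tumours high levels of these genes mark the luminal subtypes, and triple-negative tumours and lines are known for low levels of most of them.

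KIF20A itself, which checks the labels, had means of 162, 121 and 75.4 CPM (counts per 1000000 with TMM library sizes) in CTRL, SG1 and SG3 libraries, and of 123 and 838 FPM in EV and KIF20A_OE libraries (n = 3 each). The SG1 libraries were at 123, 147 and 91.5 CPM, so replicate 2 lay just under the lowest CTRL library, at 154 CPM. The KIF20A_OE libraries were uneven, at 1348, 269 and 896 FPM. Its fitted log2 changes were -0.42 and -1.10 for SG1 and SG3 (edgeR quasi-likelihood adjusted p of 0.913 and 0.33) and 2.49 for KIF20A_OE (limma adjusted p = 0.00415). Library totals were 40.9 to 51 M counts and 16 to 22.2 M fragments (M is 1000000). The libraries labelled KIF20A_OE stood apart from the other 12. Over 22834 shared genes their correlation with EV libraries was 0.849 to 0.863, below the 0.936 to 0.944 between EV and depletion libraries. CDKN2A, CDKN2B and MTAP, neighbours on 9p21, a segment that MDA-MB231 is known to have lost, were at 0 counts in all 12 other libraries and at 276 to 353, 12.2 to 14.9 and 22.6 to 24.6 FPM in KIF20A_OE. AXL and CD44, markers of the mesenchymal phenotype of the line, were at 811 to 1107 and 523 to 788 FPM in EV and at 0.75 to 0.811 and 0.125 to 1.23 FPM in KIF20A_OE. An effect of the KIF20A construct and a difference in the cells behind the 3 libraries cannot be told apart in any result below that rests on them.

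The promoters of the 4 genes that changed between EV and KIF20A_OE are shown because these held the largest differences among the 9 and because their base composition differs. Each runs from 250 bases before to 50 bases after a RefSeq transcription start on GRCh38.p14. Promoters were found for 8 of the 9 genes. Capitals mark a forkhead core (TGTTTNC or its reverse complement GNAAACA, in 18% of 35116 promoters) or a GATA core (AGATAA or TTATCT, in 10.3%), each searched on both strands.
FOXA1 promoter, chr14:37595200-37595499, minus strand: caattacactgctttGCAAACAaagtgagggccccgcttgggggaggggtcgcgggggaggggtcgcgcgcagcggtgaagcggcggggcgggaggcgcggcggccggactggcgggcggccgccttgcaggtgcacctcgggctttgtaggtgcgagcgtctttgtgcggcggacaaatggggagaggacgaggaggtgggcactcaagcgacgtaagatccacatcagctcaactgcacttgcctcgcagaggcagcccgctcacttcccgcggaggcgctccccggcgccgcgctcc
SPDEF promoter, chr6:34556280-34556579, minus strand: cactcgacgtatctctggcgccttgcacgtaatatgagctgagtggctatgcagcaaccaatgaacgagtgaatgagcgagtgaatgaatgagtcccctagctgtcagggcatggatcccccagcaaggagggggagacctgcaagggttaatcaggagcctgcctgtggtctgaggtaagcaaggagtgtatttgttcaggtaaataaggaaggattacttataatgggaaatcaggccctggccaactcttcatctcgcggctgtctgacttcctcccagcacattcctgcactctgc
AGR2 promoter, chr7:16804950-16805249, minus strand: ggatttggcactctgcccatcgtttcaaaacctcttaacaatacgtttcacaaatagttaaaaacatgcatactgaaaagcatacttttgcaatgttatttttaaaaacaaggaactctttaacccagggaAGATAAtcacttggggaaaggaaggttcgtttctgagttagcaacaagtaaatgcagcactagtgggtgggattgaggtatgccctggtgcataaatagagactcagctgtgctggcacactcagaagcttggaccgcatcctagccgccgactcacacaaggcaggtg
MLPH promoter, the first of 2 entries, chr2:237487001-237487300, plus strand: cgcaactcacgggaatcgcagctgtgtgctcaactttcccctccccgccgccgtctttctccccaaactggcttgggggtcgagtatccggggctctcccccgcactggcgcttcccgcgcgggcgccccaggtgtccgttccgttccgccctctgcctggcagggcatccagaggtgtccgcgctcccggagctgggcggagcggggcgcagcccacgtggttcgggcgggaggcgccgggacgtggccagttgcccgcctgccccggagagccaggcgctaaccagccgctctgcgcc
The FOXA1 promoter held 34 CpG dinucleotides, more than 84.4% of promoters, whose median was 14. Its forkhead core began 235 bases before the start. SPDEF and AGR2 had CpG-poor promoters, with 8 and 6 CpG, and a GATA core began 119 bases before the AGR2 start. MLPH had 34 CpG in the window shown and 7 in its other entry, chr2:237486160-237486459. No ETS core (CCGGAA or TTCCGG, in 17.2% of promoters) and no oestrogen response element half-site (AGGTCA or TGACCT, in 13.8%) was in these 4 windows. These matches describe letters only.

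The hormone receptor genes were at or near 0 in the depletion dataset. ESR1 had 0 counts in 8 of its 9 libraries and 4 counts in SG3 replicate 3, which is 0.0964 CPM. PGR had 0 counts in all 9. A count of 0 allows up to 3 counts, or 0.0588 to 0.0734 CPM in these libraries and 0.135 to 0.188 FPM in the other dataset, and such floors cover counting error only. They take counts as independent, and most low values of the 9 genes were even, as given below, so the floors may be too low. In EV libraries ESR1 had 0, 0 and 2 fragments and PGR had none. In KIF20A_OE ESR1 had 8, 2 and 0 fragments (0.501, 0.0902 and 0 FPM), overlapping EV (exact permutation p = 0.7, two-sided). PGR had 4, 0 and 166 fragments there, or 0.25, 0 and 8.89 FPM. Its group mean of 3.05 ± 5.06 FPM (SD, n = 3) thus rests on replicate 3, and its log2 change of 1.21 ± 0.80 (SE) did not pass the threshold (limma adjusted p = 0.209). ESR1 (chr6:151656691-152129619, plus strand, GENCODE 29 on GRCh38, as for all gene positions here) shares its span but no exon base with SYNE1. An antisense gene, PGR-AS1, overlaps 5.27% of the exon bases of PGR (chr11:101029624-101130524, minus strand) and had 0 counts in the depletion dataset.

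**Figure D1:**
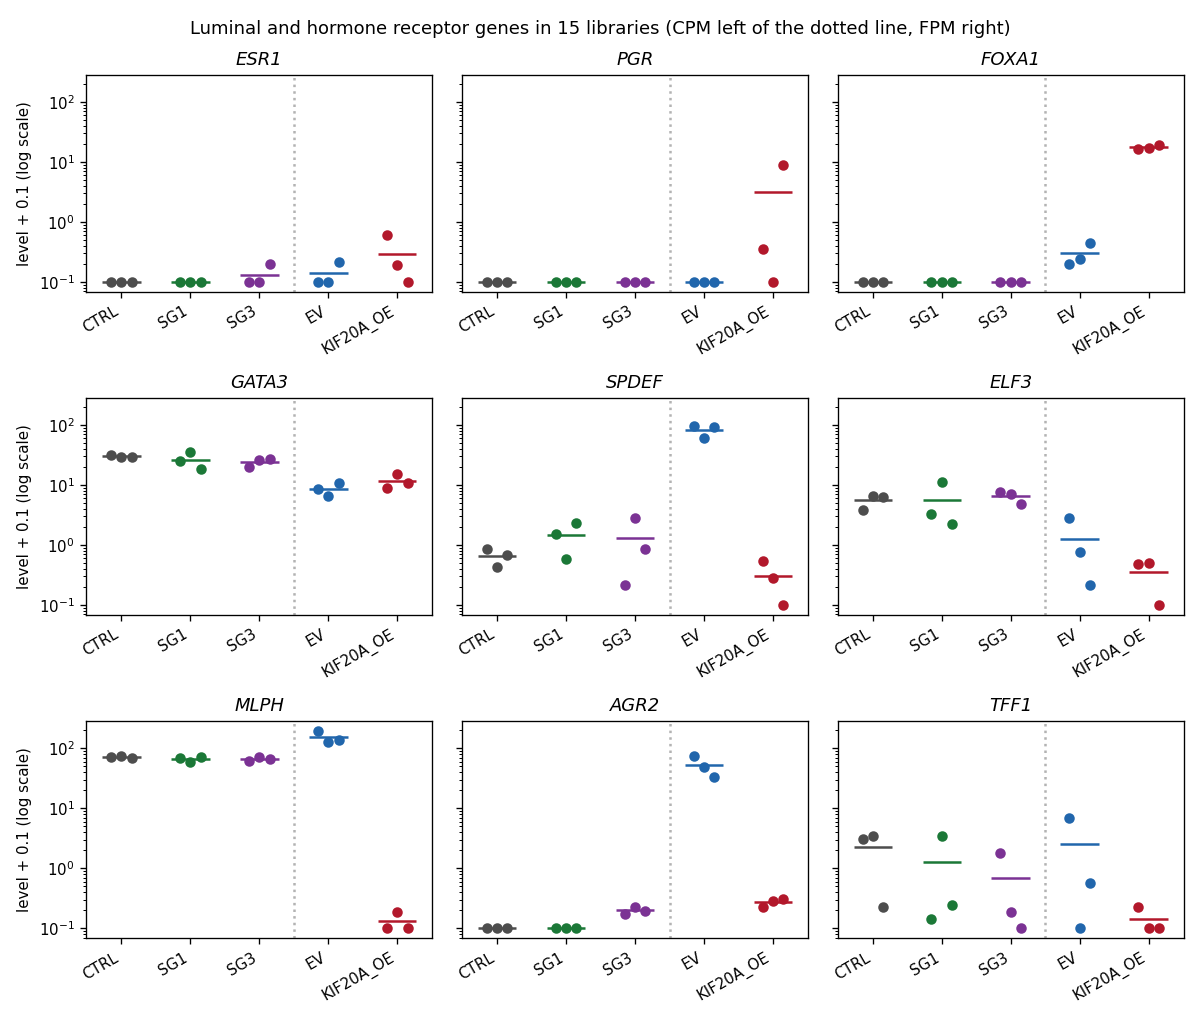
Level of each of the 9 genes in each of the 15 libraries, as CPM left of the dotted line and FPM right of it, plus 0.1 on a log axis; points are libraries and bars are group means. FOXA1 lies at 16.2 to 19.1 FPM in KIF20A_OE and at or near the floor elsewhere, while SPDEF, MLPH and AGR2 lie high in EV and at or near the floor in KIF20A_OE.

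The pioneer factors differed from each other. FOXA1 (chr14:37589984-37596059, minus strand) had 0 counts in all 9 depletion libraries, whereas GATA3 (chr10:8045378-8075203, plus strand) was present in every library of both datasets. GATA3 was at 31.7, 28.9 and 29.7 CPM in the CTRL libraries, at 25, 36.1 and 18.1 CPM in the SG1 libraries and at 20, 25.6 and 26.7 CPM in the SG3 libraries. The SG1 libraries thus lay on both sides of the CTRL range, and all SG3 libraries lay below it. The log2 change of GATA3 was -0.19 ± 0.21 (SE, 95% interval -0.64 to 0.26) in SG1 and -0.32 ± 0.21 (-0.78 to 0.13) in SG3, neither past the threshold (adjusted p of 0.933 and 1 by edgeR). An exact permutation of the 3 SG3 and 3 CTRL libraries gave the smallest p it can reach, 0.1. Both contrasts share the CTRL libraries, and without SG1 replicate 3 the SG1 value was 0.02. In the overexpression dataset GATA3 was at 8.66, 6.52 and 10.6 FPM in EV and at 8.77, 15.2 and 10.7 FPM in KIF20A_OE. These ranges overlapped, and the log2 change of 0.38 ± 0.25 (SE) did not pass the threshold (limma adjusted p = 0.21).

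Of the 2 ETS factors, ELF3 was the higher in CTRL and SPDEF the higher in EV, on the scale of levels per kilobase of exon. In CTRL ELF3 was at 0.768 RPKM (reads per kilobase and 1000000 reads; 0.528 to 0.901) and SPDEF at 0.288 RPKM (0.169 to 0.392), with no overlap between libraries. The factors overlapped in SG1 (0.293 to 1.53 RPKM for ELF3 and 0.257 to 1.15 RPKM for SPDEF) and in SG3 (0.667 to 1.03 and 0.0597 to 1.41 RPKM). SPDEF (chr6:34537802-34556333, minus strand) was at 0.75, 0.324 and 0.577 CPM in the CTRL libraries. It was at 1.43, 0.492 and 2.2 CPM in SG1 and at 0.114, 2.7 and 0.771 CPM in SG3. The depleted libraries held both the lowest and the highest values. Against CTRL its fitted log2 difference was 1.32 ± 0.78 (SE) in SG1 and 1.12 ± 0.78 in SG3 (adjusted p of 0.913 and 1 by edgeR), and without SG3 replicate 2 the SG3 value turned to -0.34. ELF3 (chr1:202007945-202017188, plus strand) was at 3.79, 6.48 and 6.29 CPM in the CTRL libraries. It was at 3.2, 11 and 2.11 CPM in SG1 and at 7.43, 7.01 and 4.8 CPM in SG3. SG1 thus held the lowest and the highest library, and the 3 groups overlapped. Its log2 changes were -0.02 ± 0.45 (SE) and 0.22 ± 0.45, neither past the threshold (edgeR quasi-likelihood), and the SG1 value was -1.05 without SG1 replicate 2 and 0.36 without SG1 replicate 3. ELF3-AS1, an antisense gene, overlaps 9.23% of the ELF3 exon bases, and the strand setting of the counting is not given, so reads in the shared bases cannot be told apart. AL691482.3, on the same strand as ELF3, also overlaps 9.23% of them and had at most 0.0762 CPM in the depletion dataset.

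MLPH (chr2:237485428-237555318, plus strand) was the steadiest of the 5 fitted genes across the depletion dataset. Its CTRL libraries were at 70.9, 73.1 and 67.5 CPM, its SG1 libraries at 67.5, 58.9 and 71.6 CPM and its SG3 libraries at 60.2, 72.5 and 66.9 CPM, and the groups overlapped. The log2 change was -0.10 for SG1 (95% interval -0.38 to 0.19) and -0.08 for SG3 (-0.37 to 0.20). The highest MLPH library was 1.24 times the lowest, and its coefficient of variation over the 9 libraries was 7.59%, which 89.2% of tested genes with a mean within 1.5-fold exceeded. The coefficient of variation was 20.8% for GATA3, 46.2% for ELF3, 85.4% for SPDEF and 118% for TFF1, exceeded by 15.5%, 2.05%, 0.228% and 0.0806% of genes of like mean. In the depletion fit 4 of the 5 genes thus varied more between libraries than most genes of their level.

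The secretory genes were low and uneven in the depletion dataset. TFF1 (chr21:42362282-42366594, minus strand) was at 2.96, 3.36 and 0.124 CPM in the CTRL libraries. The SG1 libraries had 0.0421, 3.4 and 0.144 CPM and the SG3 libraries 1.68, 0.0852 and 0 CPM. Each group thus held at least 1 library above 1 CPM and at least 1 near the floor. The fitted log2 differences of -0.83 ± 1.28 (SE) in SG1 and -1.83 ± 1.33 in SG3 did not pass the threshold. The SG3 value passed in a fit without the low-count filter (edgeR quasi-likelihood adjusted p = 0.0238). Without SG1 replicate 2 the SG1 value was -4.53, and without SG3 replicate 1 the SG3 value was -5.49. AGR2 (chr7:16791811-16833433, minus strand) had 0 counts in CTRL and SG1 libraries and 4, 6 and 4 counts in SG3, or 0.0762 to 0.128 CPM. That mean was 1.6 times the floor, and an exact permutation test gave p = 0.1, the smallest possible. Of the 25 library values of the 9 genes above 0 and below 200 counts, 23 (92%) were even, against 62.9 to 68% of all values from 10 to 50 counts. In the overexpression dataset 21 of 26 such values (80.8%) were even, against 54.1 to 57.4% of all values from 10 to 50 fragments. The part of this excess of even values in the low counts, the floors and the pooled intervals was not tested.

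**Figure D2:**
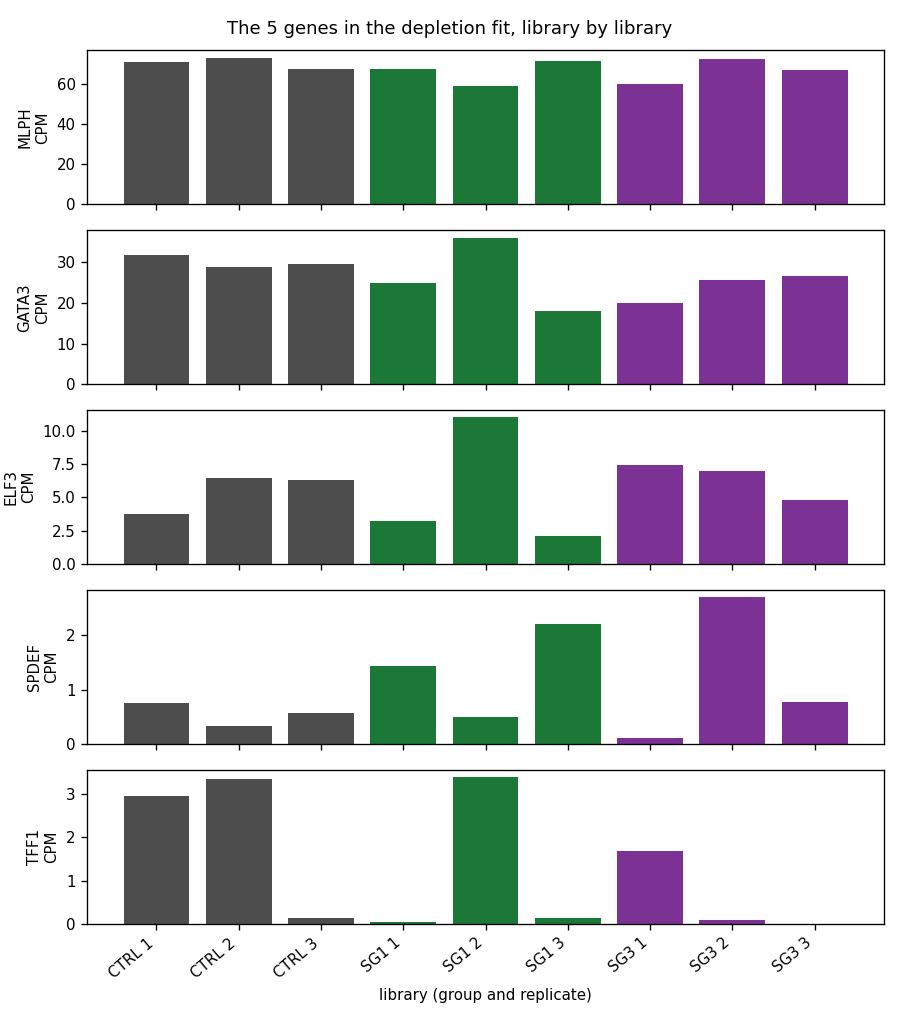
CPM of the 5 genes that passed the expression filter in each depletion library, coloured by group, with each axis starting at 0. MLPH stays between 58.9 and 73.1 CPM, while SPDEF is highest in SG3 replicate 2 and SG1 replicate 3, and TFF1 in SG1 replicate 2 and CTRL replicates 1 and 2.

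None of the 9 genes passed the test in a depletion comparison. Of the 9, 5 passed the expression filter (GATA3, SPDEF, MLPH, TFF1 and ELF3), and 0 of these were called in SG1 or SG3 against CTRL or in SG1 against SG3, beside 0% of 16786 genes in each comparison. None of the 5 reached an unadjusted p under 0.05 in these edgeR fits, against 4.59%, 1.19% and 4.74% of all genes, and DESeq2 called none of them. On simulated counts the edgeR fit recovered 71.9% of 2-fold changes for SG1 and 80.3% for SG3. It recovered 16% and 9.23% of 1.5-fold changes, so most changes of 1.5-fold would go undetected. These shares were taken over sets of genes, and recovery for each of the 5 was not tested. In the real libraries KIF20A was lower in SG3 than in CTRL without overlap, with a log2 change of -1.10. It was not called (edgeR quasi-likelihood adjusted p = 0.33). The simulated shares may therefore be too high for the real libraries, and the absence of calls does not exclude 2-fold changes. In SG1 against CTRL the SE was 0.13 for MLPH, 0.21 for GATA3 and 0.45 for ELF3. It was 0.78 for SPDEF and 1.28 for TFF1, so the shares cannot be read as those of the 5 genes. Library ranges did not overlap for 0 of the 9 genes in SG1 against CTRL, beside 12.2% of tested genes, and for GATA3 (lower) and AGR2 (higher) in SG3 against CTRL, beside 4.66% of tested genes in the latter in either direction. SG1 and SG3 differed without overlap only for AGR2, where 10.8% of tested genes did. AGR2 was not among the tested genes, so of the 5 that were, 1 did not overlap in SG3 against CTRL and 0 in SG1 against SG3. The mitochondrially encoded share of counts, a sign of RNA quality, ran from 0.962 to 2.55% over CTRL libraries, from 1.47 to 3.41% over SG1 and from 0.975 to 2.03% over SG3, and its part in these values was not tested.

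**Figure D3:**
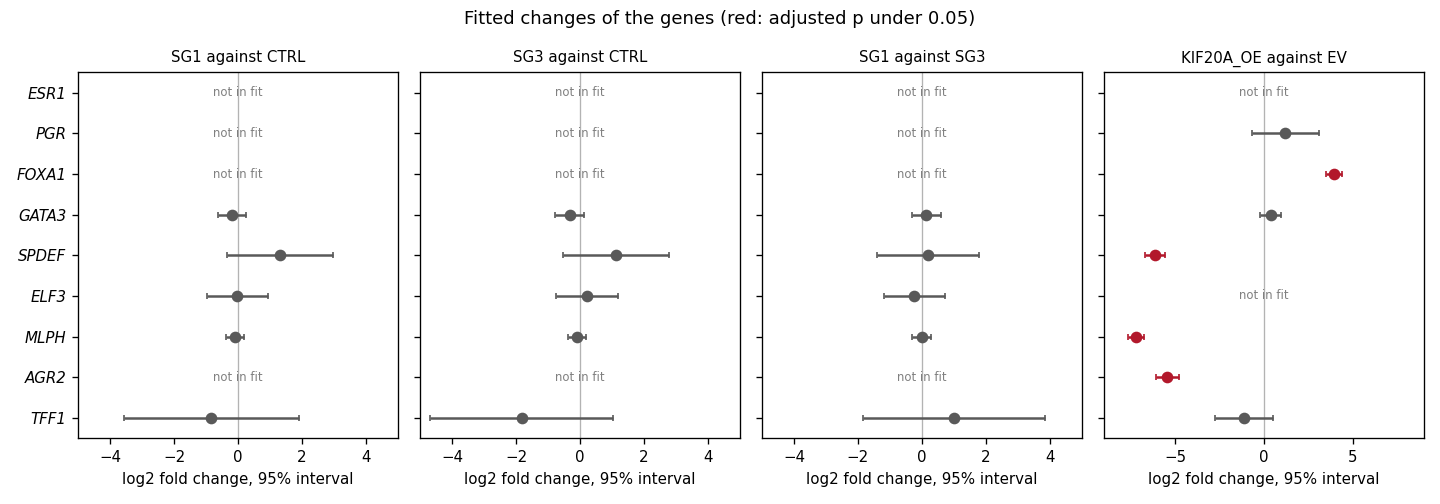
Log2 fold change with its 95% interval for each gene in each comparison, from edgeR for the 3 depletion comparisons and from limma on log2(FPM + 1) for KIF20A_OE against EV; red marks an adjusted p under 0.05. Intervals of the depletion comparisons all include 0, and 4 genes are red in KIF20A_OE against EV.

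The control libraries of the datasets held different luminal genes. Since each dataset has its own scaling, no test was made between them and their values stand side by side. SPDEF was at 0.324 to 0.75 CPM in CTRL and 61.1 to 97.7 FPM in EV, and AGR2 was at 0 CPM and 33.3 to 74.4 FPM. MLPH was at 67.5 to 73.1 CPM in CTRL and 129 to 193 FPM in EV, GATA3 at 28.9 to 31.7 CPM and 6.52 to 10.6 FPM. The order of the genes per kilobase of exon differed as well. In CTRL MLPH (9.39 RPKM) and GATA3 (8.77 RPKM) led with overlapping libraries, above TFF1 (3.9), ELF3 (0.768) and SPDEF (0.288), while TFF1 ranged from 0.224 to 6.1 RPKM and so overlapped both ELF3 and SPDEF. In EV SPDEF led at 43.7 FPKM (fragments per kilobase and 1000000 fragments; 31.9 to 51), with 6.36% of protein-coding genes above it. This lead rests on the division by exon length, since by FPM MLPH was above SPDEF in every EV library. MLPH (20.4 FPKM, 17.2 to 25.7) and AGR2 (18.3 FPKM, 11.7 to 26.1) followed with overlapping libraries. TFF1 came next by its mean of 4.37 FPKM, but ranged from 0 to 12.3 FPKM and so overlapped GATA3 (2.51 FPKM, 1.9 to 3.1). In KIF20A_OE FOXA1 (4.38 FPKM, 4.06 to 4.79) and GATA3 (3.36 FPKM, 2.55 to 4.42) led and overlapped.

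Between EV and KIF20A_OE, FOXA1 rose and SPDEF, MLPH and AGR2 fell. FOXA1 was at 0.0952, 0.145 and 0.353 FPM in EV and 16.2, 17.1 and 19.1 FPM in KIF20A_OE, with no overlap. Its log2 change on log2(FPM + 1), a scale that understates low genes, was 3.95 ± 0.19 (SE, limma adjusted p = 5.42e-07). Pooled over libraries, its rate was 93.3 times higher (exact 95% interval 51.9 to 188, counting error only). SPDEF was at 97.7, 61.1 and 91.9 FPM in EV and 0.438, 0.18 and 0 FPM in KIF20A_OE. Every KIF20A_OE library lay far under every EV library, and SPDEF fell by 6.12 ± 0.24 (SE) on the log2 scale (limma adjusted p = 2.02e-07), with pooled rates 429 times lower (240 to 861).

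MLPH had 4053, 2671 and 2353 fragments in EV, or 193, 129 and 138 FPM, and 0, 2 and 0 fragments in KIF20A_OE. Its log2 change was -7.21 ± 0.20 (SE, limma adjusted p = 5.69e-08), and the pooled rates differed 4394-fold with a wide counting interval of 1216 to 36287. AGR2 had 1562, 1013 and 566 fragments in EV (74.4, 49 and 33.3 FPM) and 2, 4 and 4 in KIF20A_OE (0.125, 0.18 and 0.214 FPM). The lowest EV library was thus far above the highest KIF20A_OE library, and AGR2 fell by 5.43 ± 0.28 (SE) on the log2 scale (limma adjusted p = 8.89e-07), a pooled ratio of 304 (165 to 635). In such bulk samples fewer expressing cells and less RNA per cell cannot be told apart.

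TFF1 was at 6.76, 0 and 0.47 FPM in EV and 0.125, 0 and 0 FPM in KIF20A_OE, so its EV level rests on replicate 1, and the log2 change of -1.11 ± 0.69 (SE) did not pass the threshold (limma adjusted p = 0.185). TFF2 and TFF3, its neighbours in the trefoil family, were highest in the same EV library, at 7.76 and 9.33 FPM. ELF3 was at 2.76, 0.677 and 0.118 FPM in EV and 0.376, 0.406 and 0 FPM in KIF20A_OE, overlapping (exact permutation p = 0.3, two-sided). ELF3 and ESR1 were under the mean of 1 FPM needed to enter the fit.

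Of the 7 genes in that fit, 1 was called higher and 3 lower, where 69.6% of the 15265 tested genes were called (46.2% higher, 23.4% lower). A call alone was therefore the common outcome in this comparison, and a gene high in 1 group only could enter the fit through that group. The median log2 change of all tested genes was 0.373, so the calls are read against that shift. With TMM scaling of recovered fragments the median was 0.0756 and 52.1% of calls were higher, against 66.4% in the reported fit, and the same 4 genes were called in the same directions. Groups did not overlap for 4 of the 9 genes, all among the 7 in the fit, where 74.1% of tested genes did not. Genes with at least 10 FPM in all EV libraries and at most 3 fragments in each KIF20A_OE library numbered 98, and 208 had the reverse pattern.

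Paralogs of the 9 genes took part in the same contrast. Of 26 listed, 21 were tested between EV and KIF20A_OE, and 7 rose (NR3C2, GATA2, GATA4, ELF2, MYRIP, EXPH5 and SYTL5) and 6 fell (ESR2, NR3C1, GATA6, FOXA2, EHF and SYTL2), with a median log2 change of -0.06 against 0.37 for all tested genes. Among all tested genes 46.2% were called higher and 23.4% lower. NR3C2 and EXPH5 were not called on recovered fragments with TMM scaling (edgeR quasi-likelihood adjusted p of 0.248 and 0.308). FOXA2, a forkhead pioneer factor of endoderm, was at 0.783 to 3.45 CPM in the depletion dataset, 64.3 to 81.1 FPM in EV and 0.0902 to 0.376 FPM in KIF20A_OE. EV libraries thus held FOXA2 with little FOXA1, and KIF20A_OE libraries FOXA1 with little FOXA2. GATA4 was listed at 0 in EV and at 35.2 to 38.1 FPM in KIF20A_OE, GATA2 went from 4.11 to 7.14 FPM to 44.5 to 54.8 FPM, and GATA6 from 24.4 to 41.8 FPM to 12 to 22 FPM. EHF, an epithelial ETS factor related to ELF3, was the highest listed paralog in the depletion dataset (238 to 373 CPM), stood at 64.8 to 145 FPM in EV and had at most 0.0902 FPM in KIF20A_OE. Of the steroid receptors described here, NR3C1, the glucocorticoid receptor, was highest in all groups (155 to 232 CPM, 165 to 203 FPM in EV and 57.8 to 64.9 FPM in KIF20A_OE), and ESR2, oestrogen receptor beta, was at 4.29 to 5.24 FPM in EV and 0.626 to 0.992 FPM in KIF20A_OE.

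The remaining listed paralogs above 1 CPM on average in the depletion dataset were ELF4 (104 CPM), ELF1 (42.9), SYTL4 (18), SYTL1 (7.33), TXNDC12 (4.65), TFF2 (1.28) and SYTL3 (1.2), and none of these was called in either dataset. In the depletion comparisons 0 of 18 tested paralogs were called, with medians of 0.01 for SG1 and 0.002 for SG3 beside -0.002 and -0.01 for all genes. GATA2, GATA3 and GATA6 lay within 12.4 to 28.5, 18.1 to 36.1 and 51.7 to 86.3 CPM over the 9 libraries.

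**Figure D4:**
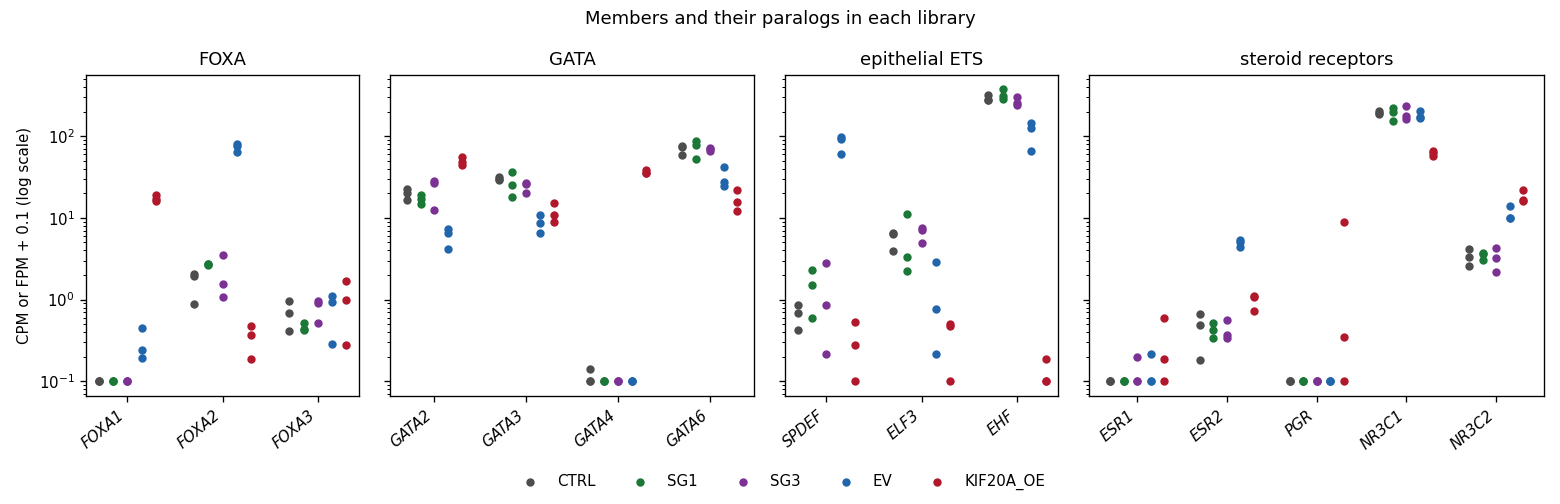
Levels of FOXA1, GATA3, SPDEF, ELF3, ESR1 and PGR with their family members in each library, as CPM or FPM plus 0.1 on a log axis, coloured by group. FOXA1 is high in KIF20A_OE where FOXA2 is low, FOXA2 is high in EV, and EHF is high in every library except those of KIF20A_OE.

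Melanophilin acts with RAB27A, RAB27B and myosin Va (MYO5A), and MYO5B and MYO5C, also class V myosins, were listed with them. All 5 of these genes were present in the depletion dataset, led by MYO5A (51.9 to 86.6 CPM), RAB27A (27.8 to 43.5) and RAB27B (11.3 to 29.3). Of them 0 were called there, with medians of 0.25 and 0.10. Against EV, RAB27A, RAB27B, MYO5A and MYO5C fell and MYO5B rose, with a median of -1.31, where 23.4% of all tested genes were called lower and 46.2% higher. RAB27B was at 35.9 to 65.8 FPM in EV and 0.225 to 2.38 FPM in KIF20A_OE, and MYO5B went from 1 to 3.58 FPM to 14.5 to 19.2 FPM.

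Several other luminal epithelial markers were abundant in all 12 libraries outside KIF20A_OE. Some were abundant in KIF20A_OE as well, such as SLC39A6 (79 to 121 FPM). The keratins KRT8, KRT7 and KRT19 led this list of 29 in the depletion dataset, with means of 682, 469 and 333 CPM, and ERBB2, which encodes HER2, was at 87.5 to 138 CPM. Simple-epithelium keratins were thus high in libraries with ESR1, PGR and FOXA1 at or near 0. Other markers of the list were nearly absent from the depletion dataset. Their means were 0 CPM for AGR3, 0.00718 for ANKRD30A, 0.0167 for RAB25, 0.0183 for ERBB4, 0.0227 for TFF3, 0.0572 for GRHL2 and 0.0686 for ESRP1. Against CTRL 0 of 22 tested markers were called in SG1 or in SG3 (medians -0.04 and -0.07). In KIF20A_OE against EV 11 of 22 fell (ERBB2, CA12, PRLR, KRT7, KRT8, KRT18, KRT19, EPCAM, EHF, CLDN4 and CLDN7) and 4 rose (ERBB4, XBP1, CDH1 and TFAP2C), with a median of -1.21. Of all genes tested in that comparison 23.4% were called lower and 46.2% higher. KRT19 was at 744 to 880 FPM in EV and at most 0.0902 FPM in KIF20A_OE, whereas KRT8 was at 559 to 674 and 234 to 329 FPM, so these keratins of 1 epithelial type did not move by like amounts. XBP1, a secretory-pathway factor, was at 43.1 to 73.9 and 104 to 134 FPM, and CDH1, E-cadherin, at 0 to 0.706 and 2 to 4.44 FPM.

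Oestrogen receptor target genes, listed apart from PGR and TFF1, did not move one way. IGFBP4, CCND1 and IL6ST had the highest depletion levels, at 1356, 890 and 669 CPM on average, in libraries with at most 4 counts of ESR1. Of 17 tested, 0 were called in either depletion comparison (medians -0.14 for SG1 and -0.04 for SG3). Of 18 tested in KIF20A_OE against EV, 8 rose (GREB1, MYB, CXCL12, EGR3, STC2, TPD52L1, CELSR2 and KCNK5) and 7 fell (IGFBP4, CCND1, CTSD, IL6ST, AREG, RARA and SUSD3), with a median of 0.49. Beside them, 46.2% of all tested genes were called higher and 23.4% lower. GREB1, a cofactor and target of oestrogen receptor alpha, was listed at 0 in EV and at 16 to 24.7 FPM in KIF20A_OE, and STC2 went from 0.143 to 0.47 FPM to 64.9 to 100 FPM. IGFBP4 went from 2171 to 2973 FPM to 7.33 to 15.1 FPM, and CCND1, cyclin D1, from 934 to 1414 FPM to 24.9 to 61.8 FPM. ESR1 itself had 10 fragments over the 3 KIF20A_OE libraries. MYB was not called on recovered fragments with TMM scaling (edgeR quasi-likelihood adjusted p = 0.116).

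Nuclear receptors and their cofactors ranged widely in level. ESRRG had 0 counts in all CTRL and SG1 libraries and ESR2 was at 0.081 to 0.574 CPM over the depletion dataset. NCOR1, NR3C1 and PHB2 were the highest of 18 listed in the depletion dataset, at 210, 192 and 152 CPM on average, and 0 of 17 tested were called there. Against EV 9 of 18 rose (NR3C2, ESRRG, VDR, NCOA1, NCOA2, EP300, CREBBP, PHB2 and SAFB) and 5 fell (ESR2, NR3C1, RARA, NCOA3 and MED1), with a median of 0.65. The shares over all tested genes were 46.2% higher and 23.4% lower. NCOA1 was not called on recovered fragments with TMM scaling, nor MED1 on those without it (edgeR quasi-likelihood adjusted p of 0.205 and 0.057). The corepressor NCOR1, which was not called, was at 168 to 171 FPM in EV and 148 to 165 FPM in KIF20A_OE. VDR, the vitamin D receptor, was at 1 to 1.47 and 9.74 to 14.2 FPM.

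Markers of other cell states moved in the same contrast, and their part in the results on the 9 genes was not tested. Of 19 basal and mesenchymal markers 10 fell (KRT14, EGFR, VIM, ZEB1, CAV1, CAV2, FN1, AXL, CD44 and MSN) and 7 rose (KRT17, FOXC1, CDH3, SNAI2, TWIST1, CDH2 and SPARC), and their summed level was 8834 to 10662 FPM in EV and 1650 to 2066 FPM in KIF20A_OE. For this and the next lists, the shares over all tested genes were 23.4% lower and 46.2% higher. KRT17 and SPARC were not called on recovered fragments with TMM scaling (edgeR quasi-likelihood adjusted p of 0.104 and 0.0946). Fibroblast markers summed to 30.6 to 104 and 98 to 114 FPM, with COL1A1, COL3A1, ACTA2 and C1S higher, COL1A2 and PDGFRB lower, and COL1A2 at 0 in KIF20A_OE. Leukocyte markers summed to 1.4 to 5.7 and 0.751 to 1.76 FPM, with PTPRC and LYZ at 0 in KIF20A_OE. Endothelial markers summed to 18.2 to 31.6 and 1.18 to 36.3 FPM, with CDH5 and KDR lower. The 36.3 FPM was that of KIF20A_OE replicate 2, mostly PECAM1 (35.8 FPM), and replicates 1 and 3 summed to 1.63 and 1.18 FPM. In the depletion dataset 0 markers of these 4 lists were called. Leukocyte markers summed to 8.8 to 10.8 CPM in CTRL and to 5.94 to 7.4 CPM and 6.03 to 7.62 CPM in SG1 and SG3, with CD3E and MS4A1 at 0. Endothelial markers summed to 3.34 to 6.06 CPM over the 9 libraries, with EMCN at 0. Their highest members there were AXL, CD44 and CAV1 (1641, 1381 and 1103 CPM), COL1A2, PDGFRB and COL1A1 (21.9, 13.4 and 11.5), CD14, ITGAM and LYZ (7.23, 0.11 and 0.0906), and KDR, PECAM1 and TEK (2.9, 1.48 and 0.261).

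Across the 9 depletion libraries the genes did not rise and fall as a unit. Correlations of log2 CPM between pairs of the 5 genes in the fit ran from -0.647 (SPDEF with TFF1) to 0.559 (SPDEF with MLPH), over 9 libraries that share groups and scaling. Of 10516 genes with a mean of at least 5 CPM, those most like GATA3 were AP1S3 (Pearson r = 0.974), COL1A2 (0.97) and TRIM29 (0.946). Genes most like MLPH were NAGS (0.952), JAGN1 (0.948) and FBLIM1 (0.947), and those most like ELF3 were PLEKHA2 (0.953), TENM3 (0.948) and HEG1 (0.944). These are the highest of 10516 correlations over only 9 libraries, and whether they exceed chance was not tested. COL1A2 and TRIM29 varied more than GATA3, from 7.43 to 40.5 and from 10.2 to 48.3 CPM, while AP1S3 stayed within 14.1 to 19.1 CPM. TFF1 followed TFF2 with r = 0.815 (Spearman rho = 0.733) over the same libraries, described here after the values were seen. Genes outside the trefoil family had a higher r with TFF1, namely MON1B (0.906), DPP4 (0.85) and TMPRSS2 (0.849).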

How the data were processed

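RNA was sequenced from 15 libraries of MDA-MB231, in 5 groups of 3 taken from the sample titles. The depletion values are raw counts per gene, as deposited by the authors and per the labels. The labels name FPKM for the overexpression values. The columns deposited by the authors, however, had a sum of 1000000 each, and 100% of their values were whole multiples of a step fixed per library (tolerance 0.001 fragments), which makes them fragments per 1000000 (FPM), the fragment form of CPM, without gene length. The fixed design had taken them as normalized values, and its log-scale test was kept. The submitters' processing notes name build hg38, STAR 2.7.3a, Subread 1.6.3 with featureCounts, Trim Galore 0.6.4 and limma 3.50.3. How each tool was used, the annotation and the strand setting were not stated. Of the gene identifiers, 96.3% (counts) and 97.3% (FPM) were found in GENCODE 29, which gave exon lengths and positions.

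Counts of the 9 depletion libraries were fitted together with edgeR 4.0.16 (R 4.3.3; quasi-likelihood test, TMM scaling, filterByExpr), which kept 16786 genes. FPM values were fitted with limma 3.58.1 (trend, robust) on log2(FPM + 1) for the 15265 genes whose mean reached 1 FPM. Benjamini-Hochberg adjustment ran over all tested genes, with a threshold of 0.05. Genes outside a fit were compared by two-sided exact permutation, whose smallest p for 3 against 3 is 0.1. Pooled ratios carry exact 95% intervals, which take fragments as independent and so may be too narrow. Levels per kilobase divide by the exon length of a gene, with the depletion values as RPKM and the others as FPKM. That length joins all annotated exons of the gene and can exceed the length of its transcripts, so orders of genes per kilobase depend on it. The tests were checked on simulated data with 200 changed genes. In the simulated KIF20A_OE comparison limma recovered 26.7% of 2-fold and 70.9% of 4-fold changes.

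Every pair of replicates differed beyond counting noise (chi-square divided by its degrees of freedom 11.65 to 131.5), and each library was counted as 1 replicate. The 9 genes and 10 further lists were chosen with earlier results of these data known. Some listed genes are not reported here, and the counts, medians and sums of the lists leave them out. Named genes were the 9, any listed gene past the threshold, the 3 highest of each list, paralogs above 1 CPM and some of the genes overlapping one of the 9. The 3 genes most correlated with each of the 9 that had a mean of at least 5 CPM were also named. CDKN2A, CDKN2B, MTAP, the TFF1 with TFF2 relation and the genes most like TFF1 were added after their values were seen. Alternatives were DESeq2 1.42.0, other size factors, filters and pseudocounts, halved counts, fits of 6 libraries, a replicate block, recovered fragments and each library left out.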

Additional observations from a re-analysis of the deposited data

How the results depend on the processing

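In KIF20A_OE against EV, FOXA1 was called higher and SPDEF, MLPH and AGR2 lower under every alternative run, with log2 changes of 3.89 to 6.47, -9.06 to -5.99, -12.2 to -7.03 and -8.54 to -5.14. Fits of recovered fragments without TMM scaling were added after seeing the data. GATA3, PGR and TFF1 stayed uncalled, at 0.06 to 0.54, 1.21 to 2.77 and -2.48 to -1.09 (limma and edgeR adjusted p from 0.0513). Of 295 recomputed log2 changes of the 9 genes, 277 kept their direction and side of the threshold, 17 turned direction, all of these uncalled, and 1 gained a call; 7 had no adjusted p.

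Counts of called genes in the depletion comparisons, 0 in the reported fits of 16786 genes, were above 0 in fits that kept genes of low count. DESeq2 on 31101 genes, where the tool, the scaling and the filter changed together, called 2 genes higher in SG1 against CTRL, 3 higher and 1 lower in SG3 against CTRL, and 2 higher and 2 lower in SG1 against SG3. With 31103 genes kept, edgeR gave 26 genes higher and 65 lower, 5 higher and 3 lower, and 23 higher and 54 lower in that order, and 1 of the 9 genes, TFF1, lower in SG3 (-1.83). With 1 library left out, 0 to 1 genes were lower in SG1 against CTRL (1 without SG1 replicate 2) and 0 to 5 in SG1 against SG3 (5 without SG3 replicate 1). Leaving out 1 library gave ranges that cross 0. For SG1 against CTRL these were -1.05 to 0.36 for ELF3 and -0.48 to 0.0201 for GATA3. For SG3 against CTRL they were -0.15 to 0.0087 for MLPH and -0.34 to 1.69 for SPDEF. For SG1 against SG3 they were -1.29 to 0.15 for ELF3, -0.19 to 0.34 for GATA3, -0.11 to 0.055 for MLPH, -0.37 to 1.66 for SPDEF and -2.70 to 4.63 for TFF1. The cause was not tested.

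Replicate numbers showed no pairing of the depletion samples. Deviations of same-numbered libraries correlated at -0.174 to 0.359 in the depletion dataset, where other pairs ran from -0.328 to 0.331. In the overexpression dataset same-numbered pairs ran from 0.0142 to 0.0577, above the -0.0497 to 0.0093 of other pairs. All of these values were small, and a pairing there was not tested. With a replicate block 0 genes were called in the depletion comparisons, and 6984 genes were called higher and 3546 lower in KIF20A_OE against EV, with 1 and 3 of the 9 genes. Depth limits ESR1, PGR and AGR2 in the libraries where their low counts lie near the floor of 3 counts. TFF1 ran from 0 to 3.4 CPM over the depletion libraries, with a coefficient of variation of 118%, a spread between libraries far wider than that floor.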
